A study of Mus musculus with 3 samples.

Results

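Single-cell RNA levels of 8 genes were followed across the cell classes of inflamed mouse knee synovium. The genes encode 5 secreted proteases of the ADAMTS family (Adamts1, Adamts2, Adamts4, Adamts5 and Adamts12) and 3 tissue inhibitors of metalloproteinases (Timp1, Timp2 and Timp3). They were taken by name, though with earlier results of these data known. All 8 were among the 21479 gene symbols listed in every library, of 24357 symbols in all. The tissue came from 6 female wild type C57BL/6 mice, aged 8 weeks, given the C&AIA model, an arthritis set off by collagen and by antibodies to it. They had received 100 µg of type II collagen on day 0, 1 mg of anti-collagen antibodies on day 21 and lipopolysaccharide (LPS) on day 22. Synovium was taken at the effector phase and digested with collagenase and DNase. The 3 libraries, replicates 1 to 3, formed a single group and each pooled 2 mice, so every comparison is between cell classes of the same arthritic joints and none is with healthy tissue.

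ADAMTS proteases act outside the cell on the matrix, and those that cut aggrecan, the proteoglycan that lets cartilage hold water, are called aggrecanases. Their loss of control is a known feature of cartilage destruction in arthritis. TIMPs are small secreted proteins that block the active site of metalloproteinases, and of these Timp3 is the one known to inhibit the aggrecanases. The balance of protease and inhibitor at a given place decides how much matrix is cut, and much of that control also acts on the protein after secretion, which RNA does not show.

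The libraries held 99782608 to 116125707 UMIs (unique transcript molecules) over 11602 to 15263 barcodes. In the labels, replicates 1, 2 and 3 are said to have 11111, 10668 and 14363 cells, against 11939, 11602 and 15263 barcodes in the matrices and 11440, 11082 and 14347 after filters. Clusters were made without the 8 genes and were named from marker genes, with the ending "-like" because the names rest on RNA alone. All 8 fibroblast, 9 tenocyte, 6 endothelial and 8 pericyte and smooth muscle markers had at least 1 UMI in the classes of those names. The names were given from these same markers, so this is no separate check. Under the stricter naming rule, the tenocyte-like sub-cluster passed 6 of 9 tenocyte markers and also 6 of 6 sublining fibroblast markers. The fibroblast markers summed to 40106 to 41073 CPM in fibroblast-like cells, 2813 to 3257 CPM in monocyte/macrophage-like and 3568 to 3855 CPM in neutrophil-like cells. Of the 36869 cells analysed, 7644 were fibroblast-like, 1081 endothelial-like, 518 tenocyte-like, 504 pericyte/smooth-muscle-like and 205 adipocyte-like. Leukocytes were represented by 10993 monocyte/macrophage-like and 11021 neutrophil-like cells. Left out of every class sum were 1710 cells of mixed sub-clusters, which had markers of unlike cell types, and 66 unnamed cells. The mixed sub-clusters include those of 122 and 56 cells led by Rgs5 and Acta2. They also include those of 106 and 90 cells led by Fabp4 and Plvap. The median depth was 10886.5 UMIs in fibroblast-like, 6234 in monocyte/macrophage-like and 1776 in neutrophil-like cells. Each pair of libraries shared 2602 to 2866 barcode names, and names alone do not show whether cells are shared. The 24 chondrocyte-like cells were too few to be summed per library, so no value stands for cartilage itself.

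Levels are UMIs of the gene per 1000000 UMIs of the class, written CPM here. They are not corrected for gene length and are compared between classes for 1 gene at a time. The 20 classes with enough cells are far apart in depth, and RNA from broken cells enters every droplet, so each level was set beside a free RNA limit. This limit is the CPM that free RNA would give with the gene shares of that library, were it the only source of neutrophil genes such as S100a8 and S100a9 in the class (in neutrophil classes, of collagen genes). Fold changes between classes come from edgeR's quasi-likelihood test, with TMM scaling, the library as a block and Benjamini-Hochberg adjustment over all genes tested. To be called, a gene needed an adjusted p under 0.05 and a log2 fold change of 1 or more in either direction. These p-values rest on the spread of 3 libraries, each of pooled mice, and the spread of single mice was not measured.

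Between them, the libraries gave 793, 1145 and 742 UMIs of Adamts12 in replicates 1, 2 and 3, the fewest of the 8 genes, and 213984, 225086 and 256970 UMIs of Timp1, the most. Adamts5 was counted at 7285, 7931 and 9344 UMIs, and Adamts4 at 1332, 1447 and 1430. The share of a gene's UMIs that each class supplied depends on both its level and its number of cells. Fibroblast-like cells supplied 80.5%, 79.8% and 82.3% of Adamts5 UMIs and 82.1%, 84.0% and 84.2% of Timp1 UMIs in replicates 1, 2 and 3. By contrast, endothelial-like cells supplied 44.5%, 40.3% and 33.3% of Timp3 UMIs and pericyte/smooth-muscle-like cells 27.6%, 26.5% and 23.6% of Adamts12 UMIs. The mixed cells left out of the classes held a mean of 10.7% of Adamts4 UMIs, against 9.47% in pericyte/smooth-muscle-like cells.

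**Figure D1:**
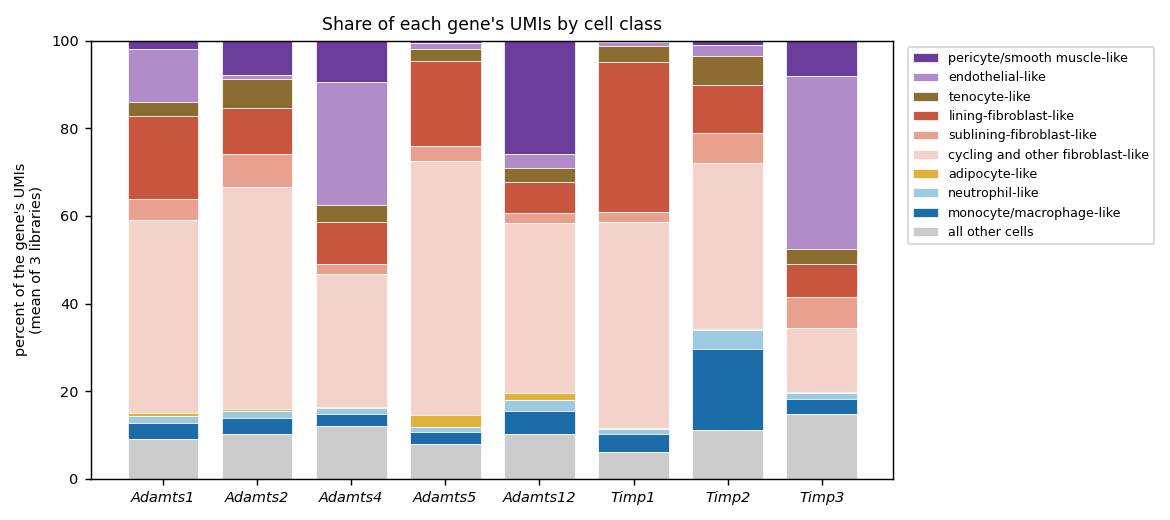
Share of each gene's UMIs by cell class, as the mean of 3 libraries, with the percent of the gene's UMIs on the y axis and 1 stacked bar per gene. The fibroblast-like colours fill most of the bars of Adamts5 and Timp1, the endothelial-like colour is widest in Timp3 and the pericyte/smooth-muscle-like colour in Adamts12.

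Adamts5 encodes aggrecanase-2, the main aggrecan-cutting enzyme of mouse cartilage. It had 193, 196 and 175 CPM in fibroblast-like cells of replicates 1, 2 and 3, against 7.83, 8.36 and 8.44 CPM in monocyte/macrophage-like cells. The class ranges did not overlap, and the leukocyte values lay below their free RNA limits of 12.5, 12.0 and 19.0 CPM. Between these classes the log2 fold change was 4.56 ± 0.08 (SE; edgeR quasi-likelihood test, Benjamini-Hochberg adjusted p = 1.57e-12). With every cell thinned to 1000 UMIs, 14.8%, 13.7% and 15.1% of fibroblast-like cells held an Adamts5 UMI, against 0.847%, 1.37% and 1.10% of neutrophil-like cells, a class taken as lacking the gene. Without thinning these shares were 61.3%, 62.9% and 61.0% of fibroblast-like and 1.98%, 2.72% and 1.97% of neutrophil-like cells.

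Within the stroma, adipocyte-like cells stood first at 321, 343 and 322 CPM (329 ± 12.5, SD, n = 3), above fibroblast-like cells outside the named sub-classes at 219.5, 256 and 214 CPM, and the ranges of the pair did not overlap. The adipocyte-like sums rest on 51, 65 and 89 cells. Lining-fibroblast-like cells had 183, 143 and 170.4 CPM and sublining-fibroblast-like cells 133, 129 and 96.0 CPM, a difference with log2 fold change 0.32 ± 0.11 that was below the fold threshold (adjusted p = 0.0401, edgeR quasi-likelihood test). Tenocyte-like cells, the stroma with tendon and fibrocartilage markers, had 85.6, 81.5 and 62.4 CPM, below the range of all fibroblast-like cells as 1 class. The log2 fold change of tenocyte-like over fibroblast-like cells was -1.10 ± 0.08 (adjusted p = 1.43e-10, edgeR quasi-likelihood test). The call was lost with thinned cells (-0.93), with doublets kept (-0.94) and with per-cell marker gates (-0.93). When no margin between sub-class marker scores was asked for, the value was 0.08. Vessel cells were far lower, with 29.2, 22.98 and 18.6 CPM in pericyte/smooth-muscle-like and 18.0, 13.7 and 15.9 CPM in endothelial-like cells. Their log2 fold changes over fibroblast-like cells were -3.35 ± 0.12 and -3.79 ± 0.09 (adjusted p = 9.83e-21 and 4.49e-13, edgeR quasi-likelihood test).

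Adamts4, which encodes aggrecanase-1, was placed differently. Pericyte/smooth-muscle-like cells, the contractile cells of the vessel wall, had 77.4, 96.1 and 82.2 CPM and endothelial-like cells, which line the vessels, 61.5, 50.1 and 62.7 CPM, against 15.9, 18.8 and 15.6 CPM in fibroblast-like cells. Both vessel classes lay above every fibroblast-like value, and the pericyte range lay above the endothelial one. With cells classed by per-cell marker gates, the order of the vessel class means turned, and endothelial-like cells were highest at a mean of 53.5 CPM. Over fibroblast-like cells, the log2 fold change was 1.97 ± 0.12 for pericyte/smooth-muscle-like cells (adjusted p = 2.83e-15) and 1.57 ± 0.10 for endothelial-like cells (adjusted p = 1.34e-08, both edgeR quasi-likelihood). Lining and sublining fibroblast-like cells averaged 14.0 ± 1.91 and 14.0 ± 3.55 CPM (SD, n = 3 each) and were not told apart (log2 fold change -0.10 ± 0.20). Among the endothelial-like sub-clusters, with the libraries pooled, Adamts4 ranged from 34.4 CPM in the one led by Vwf to 82.1 CPM in a cycling one. The cycling one was also the deepest, with a median of 27481.5 UMIs, against 9148.5 to 13462 in the others. No leukocyte class was above its free RNA limit in all 3 libraries. Neutrophil-like cells had 2.45, 2.09 and 2.21 CPM, with limits of 2.87, 3.14 and 2.50.

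Adamts1 encodes a protease known to cut versican and, more weakly, aggrecan. In the order of mean levels, ranges overlapped from one class to the next through all 20 classes. Other fibroblast-like cells had the highest mean, but endothelial-like cells did with thinned cells (65.7 CPM). With per-cell marker gates sublining-fibroblast-like cells were highest (61.5 CPM), and with no margin between sub-class marker scores tenocyte-like cells were (62.3 CPM). Endothelial-like cells had 52.5, 47.4 and 52.5 CPM and fibroblast-like cells 55.7, 66.0 and 46.4 CPM, with overlapping ranges and a log2 fold change of endothelial-like over fibroblast-like of -0.35 ± 0.10, which was not called. Other, lining and sublining fibroblast-like cells averaged 59.8 ± 15.0, 57.6 ± 8.94 and 56.8 ± 14.3 CPM (SD, n = 3 each) and their ranges overlapped. Pericyte/smooth-muscle-like cells were at 27.5, 43.6 and 39.0 CPM. The log2 fold change of pericyte/smooth-muscle-like over fibroblast-like cells, -1.013 ± 0.13, just passed the threshold (adjusted p = 1.59e-07, edgeR quasi-likelihood test), but without replicate 1 it was -0.84 and with thinned cells -0.36, and neither was called. One endothelial-like sub-cluster, of 171 cells led by Fabp4 and Ly6c1, held 95.0 CPM against 37.4 to 51.1 in the other endothelial-like sub-clusters. The values in B cell-like cells, 0, 37.6 and 0 CPM, come from 4 UMIs in replicate 2.

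Adamts2 encodes the main procollagen N-proteinase, which removes the amino-terminal propeptide of fibrillar collagens so that fibrils can form. It is not an aggrecanase. Its level was 338, 317 and 401 CPM in pericyte/smooth-muscle-like cells, against 133, 131 and 146 CPM in fibroblast-like cells. The 2 ranges did not overlap, and the log2 fold change of 0.98 ± 0.08 lay just under the threshold for a call. It was 1.36 and called when sums were scaled by their totals alone. Sublining-fibroblast-like cells came next at 203, 195 and 250.2 CPM. Lining-fibroblast-like cells, at the surface of the membrane, had 83.6, 62.9 and 85.7 CPM. Lining over sublining gave a log2 fold change of -1.65 ± 0.09 (adjusted p = 1.81e-09, edgeR quasi-likelihood test). Endothelial-like cells had 6.73, 7.69 and 8.41 CPM, close to their free RNA limits of 6.90, 7.19 and 13.2, and the log2 fold change over fibroblast-like cells was -4.38 ± 0.10 (adjusted p = 1.74e-13, edgeR quasi-likelihood test).

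Adamts12 encodes a protease known to degrade cartilage oligomeric matrix protein. It was found at 122.9, 179 and 148 CPM in pericyte/smooth-muscle-like cells, against 11.5, 17.9 and 8.43 CPM in fibroblast-like cells. Every pericyte value was above every fibroblast-like value. The log2 fold change was 3.22 ± 0.13 (adjusted p = 4.45e-20, edgeR quasi-likelihood test), the highest of the 8 genes in this comparison. Adipocyte-like cells came next at 31.9, 18.6 and 18.3 CPM, a range that overlapped with that of other fibroblast-like cells (12.6 to 30.1 CPM). Endothelial-like cells had 3.43, 4.92 and 4.59 CPM and a log2 fold change of -1.79 ± 0.17 over fibroblast-like cells (adjusted p = 7.15e-07, edgeR quasi-likelihood test), so the 2 vessel classes lay on opposite sides of the fibroblast-like level. The share of pericyte/smooth-muscle-like cells with an Adamts12 UMI was 12.7%, 18.5% and 15.0% after thinning and 44.9%, 54.9% and 40.5% without, against 0.238%, 0.264% and 0.290% and 0.609%, 0.607% and 0.434% of neutrophil-like cells.

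The highest Adamts12 levels within the pericyte/smooth-muscle-like and fibroblast-like classes stood beside high levels of Malat1 and Meg3, 2 long non-coding RNAs that stay in the nucleus. The pericyte/smooth-muscle-like sub-cluster with 369 CPM of Adamts12 held 8448 CPM of Malat1 and 1337 CPM of Meg3. The largest sub-cluster of the same class, of 224 cells, held 47.1 CPM of Adamts12, 452 CPM of Malat1 and 169 CPM of Meg3. Among fibroblast-like cells outside the named sub-classes, the sub-cluster with 77.5 CPM of Adamts12 held 4573 CPM of Malat1, while the one with 10.5 CPM held 205 CPM. Fibroblast-like sub-clusters with no more Malat1 than the pericyte/smooth-muscle-like sub-cluster of 224 cells held 2.55 to 10.5 CPM of Adamts12. The order did not hold throughout. A pericyte/smooth-muscle-like sub-cluster with 3088 CPM of Malat1 held 81.8 CPM of Adamts12, and another with 2471 CPM held 110.4 CPM. In endothelial-like cells, the sub-cluster with the most Malat1, 1914 CPM, also had the most Adamts12, 8.55 CPM. However, the one with the next most Malat1, 1136 CPM, had the lowest Adamts12 level of the class, 1.05 CPM. The 2 adipocyte-like sub-clusters held 27.5 and 14.0 CPM of Adamts12 beside 1813 and 458 CPM of Malat1. The pericyte/smooth-muscle-like sub-cluster with 8448 CPM of Malat1 also held 120 CPM of Adamts4, against 69.4 to 81.8 CPM in the others of its class. It held the least Adamts5 of that class, 14.0 CPM. The part of nuclear RNA in the levels of Adamts12 and of the other members was not tested.

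**Figure D2:**
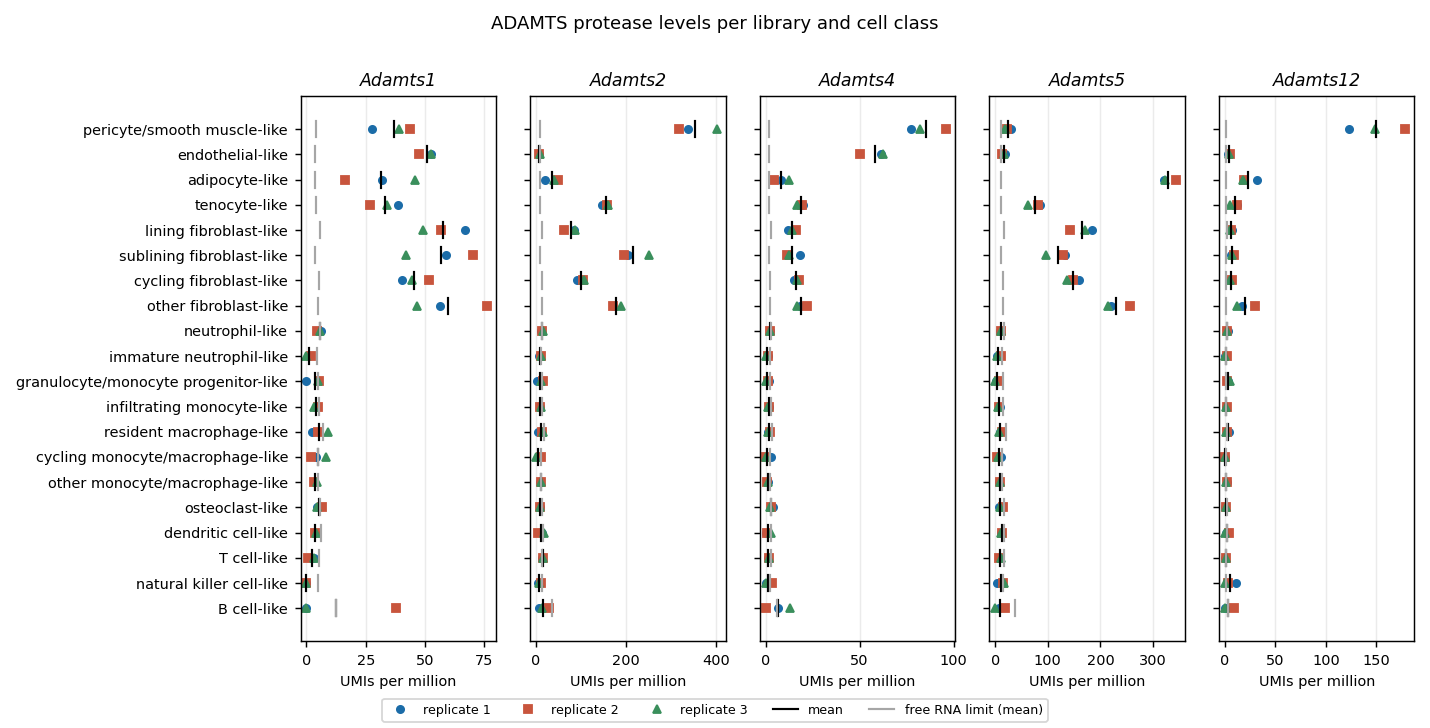
Levels of the 5 ADAMTS genes (x axis, CPM, each gene on its own scale) in 20 cell classes (y axis), with 1 point per library, a black line for the mean and a solid grey line for the mean free RNA limit. Adamts5 points lie to the right in adipocyte-like and fibroblast-like classes, Adamts4 and Adamts12 in pericyte/smooth-muscle-like cells, and the leukocyte classes sit at or near the grey lines.

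**Figure D3:**
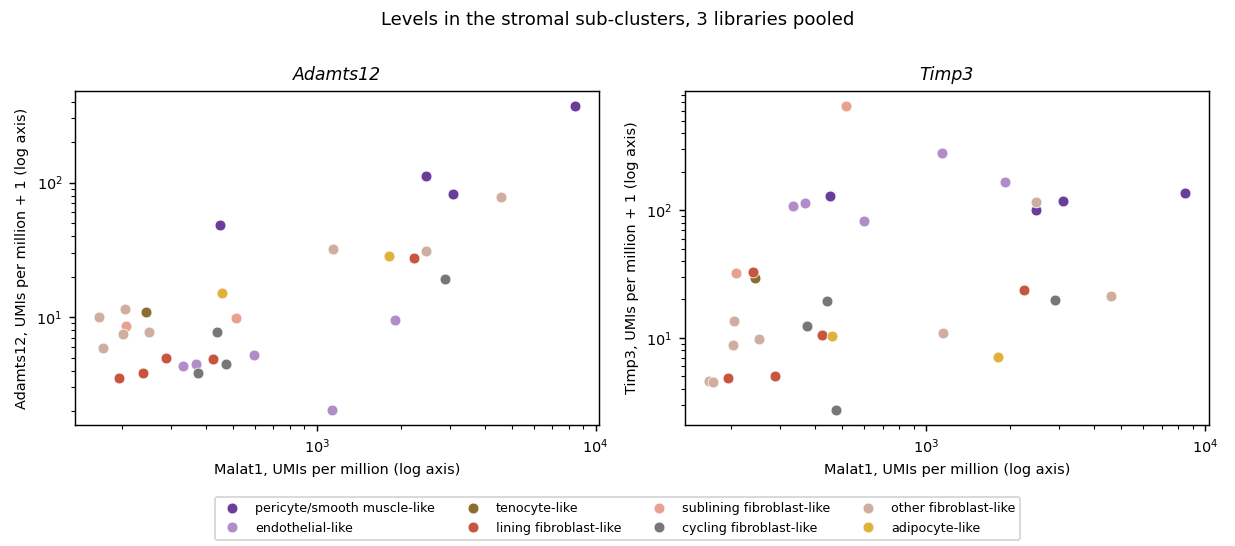
Adamts12 and Timp3 levels (y axes, CPM plus 1, log scale) against Malat1 (x axes, CPM, log scale) in the stromal sub-clusters, 1 point each with the libraries pooled and coloured by class. The point at 369 CPM of Adamts12 also has the highest Malat1, 8448 CPM, whereas the point at 654 CPM of Timp3 has 515 CPM of Malat1.

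The 3 inhibitors reached their highest levels in 3 different classes, and the sequences just before their transcription starts are shown here for comparison. They are the 250 bases before the start in RefSeq's annotation of GRCm38.p6, an earlier build than the authors' GRCm39. Capitals mark a GC box, GGGCGG or its reverse complement CCGCCC, searched for on both strands. Of the 8 genes, 6 were in the promoter table.

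Timp1, chrX:20869916-20870165, plus strand: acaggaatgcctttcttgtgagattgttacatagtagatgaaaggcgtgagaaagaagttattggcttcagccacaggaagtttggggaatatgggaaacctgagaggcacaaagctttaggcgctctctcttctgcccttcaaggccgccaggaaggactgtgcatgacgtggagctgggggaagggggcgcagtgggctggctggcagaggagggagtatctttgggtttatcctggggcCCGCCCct
Timp2, chr11:118355412-118355661, minus strand: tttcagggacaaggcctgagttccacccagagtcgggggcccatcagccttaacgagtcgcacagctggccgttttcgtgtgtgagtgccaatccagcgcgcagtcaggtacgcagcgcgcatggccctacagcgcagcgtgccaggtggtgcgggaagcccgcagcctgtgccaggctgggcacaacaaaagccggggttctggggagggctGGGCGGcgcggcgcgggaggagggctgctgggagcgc
Timp3, chr10:86300162-86300411, plus strand: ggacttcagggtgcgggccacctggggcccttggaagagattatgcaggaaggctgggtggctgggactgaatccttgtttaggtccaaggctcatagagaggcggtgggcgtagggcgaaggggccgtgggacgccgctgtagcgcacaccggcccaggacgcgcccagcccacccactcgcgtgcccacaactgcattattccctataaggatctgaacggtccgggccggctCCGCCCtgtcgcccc

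Each of the 3 sequences held 1 GC box, ending 2, 31 and 9 bases before the start of Timp1, Timp2 and Timp3. The G and C content was 54.4%, 68.0% and 65.6%. A GC box stood in 5 of the 6 members in the table and in 32.7% of 32851 promoters, a TATA box (TATAAA or TTTATA) in 1 of 6 and 12.4%, and an AP-1 site (TGANTCA) in 0 of 6 and 6.75%. These are matches of letters and do not show that a factor binds.

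Timp3, the inhibitor known to block aggrecanases and to stay bound to the matrix, had 125, 144 and 144 CPM in endothelial-like cells, against 15.6, 27.0 and 17.3 CPM in fibroblast-like cells. It had 111, 117 and 147 CPM in pericyte/smooth-muscle-like cells. The 2 vessel classes overlapped with each other and lay above every fibroblast-like value. Over fibroblast-like cells, the log2 fold change was 2.60 ± 0.11 for endothelial-like cells (adjusted p = 7.33e-11) and 2.28 ± 0.13 for pericyte/smooth-muscle-like cells (adjusted p = 1.03e-15, both edgeR quasi-likelihood). The endothelial-like sub-cluster with the high Adamts1 level also had the highest Timp3 of that class, 278 CPM against 81.9 to 164 CPM in the others. Leukocyte classes were near the free RNA limit, with 2.77, 3.86 and 2.67 CPM in monocyte/macrophage-like cells and limits of 3.52, 4.32 and 4.61.

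Within the synovial membrane, lining-fibroblast-like cells had 12.1, 29.9 and 15.5 CPM of Timp3, against 41.3, 73.1 and 77.2 CPM in sublining-fibroblast-like cells. Lining over sublining gave a log2 fold change of -1.95 ± 0.17 (adjusted p = 2.3e-07, edgeR quasi-likelihood test). A sublining-fibroblast-like sub-cluster of 38 cells, led by the matrix genes Mgp, Eln and Mfap5, carried much of the sublining level. It held 654 CPM, whereas the 528 other sublining-fibroblast-like cells held 31.3 CPM. When sub-clusters under 50 cells were left out, the log2 fold change was -0.78 and was not called. In lining-fibroblast-like cells Timp3 also differed between sub-clusters, from 3.83 CPM to 31.96 CPM. In the GENCODE vM21 annotation Timp3 overlaps Syn3 on the opposite strand, and Syn3 was at 2.85 CPM in endothelial-like cells. Whether the authors' counting used the strand is not given in the sources used here.

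Timp1, an inhibitor of many matrix metalloproteinases that inhibits aggrecanases poorly, had 8679, 10075 and 6672 CPM in lining-fibroblast-like cells, against 2337, 1733 and 2139 CPM in sublining-fibroblast-like cells. The ranges were far apart, and the log2 fold change was 1.86 ± 0.12 (adjusted p = 1.22e-08, edgeR quasi-likelihood test). The level was not even within the lining class. With the libraries pooled, its sub-clusters ranged from 3629 to 9837 CPM. The lowest, of 158 cells led by Prg4 and Hbegf, was the one that passed 5 of 5 lining markers. Cycling fibroblast-like cells had 6854 ± 153 CPM, which overlapped with the lining range, and other fibroblast-like cells 3673 ± 363 CPM (SD, n = 3 each). Tenocyte-like cells had 3246, 2534 and 2705 CPM, and adipocyte-like cells 1074, 675 and 1322 CPM. The share of cells with a Timp1 UMI after thinning to 1000 UMIs was 96.8%, 94.7% and 90.4% in lining-fibroblast-like cells and 26.2%, 27.3% and 28.6% in neutrophil-like cells. Without thinning it was 99.4%, 99.2% and 99.3% of lining-fibroblast-like and 45.3%, 48.3% and 43.1% of neutrophil-like cells.

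No leukocyte class had more Timp1 than its free RNA limit in all 3 libraries. Neutrophil-like cells had 299, 302 and 334 CPM, all under their limits of 460.4, 489 and 449 CPM. Monocyte/macrophage-like cells had 336, 356 and 407 CPM, with limits of 369, 342 and 524 CPM. Vessel cells were close to it as well, with 329.9, 293 and 384 CPM in endothelial-like cells and limits of 244, 252 and 388 CPM. Pericyte/smooth-muscle-like cells had 524, 425 and 467 CPM, above limits of 329, 279 and 349 CPM in all 3 libraries. Fibroblast-like cells had 5769.9, 5854 and 4930.0 CPM, so the log2 fold changes of endothelial-like (-4.26 ± 0.11) and pericyte/smooth-muscle-like cells (-3.93 ± 0.08) over fibroblast-like cells involve levels near the free RNA limit (adjusted p = 5.08e-13 and 8.27e-27, edgeR quasi-likelihood test). With per-cell marker gates the pericyte value was -0.40 and was not called. Timp1 lies within Syn1 on the opposite strand, and Syn1 was at 48.7 CPM in lining-fibroblast-like cells.

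Timp2, which both inhibits matrix metalloproteinases and takes part in the activation of pro-MMP2 at the cell surface, had its highest level in a leukocyte class. Per-cell marker gates form no resident macrophage class, and there its highest level was in tenocyte-like cells, at 1294 CPM. Resident-macrophage-like cells, with the markers of the long-lived macrophages of the membrane, had 2271, 2389 and 2333 CPM. The class called infiltrating-monocyte-like here took sub-clusters with at least 3 of 5 infiltrating monocyte markers. Their infiltrating marker score also had to lead the resident one by a margin. This class had 109.7, 109 and 129 CPM, within reach of its free RNA limits of 103, 86.4 and 150.3 CPM. Of its 9 sub-clusters, 4 (of 1160, 543, 253 and 375 cells) were led by MHC class II or Cxcl10 genes and not by blood monocyte markers, so the name is weak for them. The ranges of the resident and infiltrating classes were far apart, although the resident sums rest on 67, 76 and 90 cells and the pair was not among the comparisons tested. After thinning, 79.1%, 86.8% and 85.6% of resident-macrophage-like cells held a Timp2 UMI, against 10.1%, 11.6% and 12.5% of infiltrating-monocyte-like cells. Osteoclast-like cells, which resorb bone, had 486, 512 and 475 CPM and other monocyte/macrophage-like cells 454, 506 and 493 CPM. Neutrophil-like cells, at 311, 303 and 304 CPM, were above their limits of 116, 115 and 126 CPM in all 3 libraries, unlike for the other 7 genes except Adamts12.

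For Timp2 the order of lining and sublining was the reverse of that for Timp1. Lining-fibroblast-like cells had 697, 687 and 701 CPM of Timp2, against 1607, 1345 and 1883 CPM in sublining-fibroblast-like cells. The log2 fold change was -1.36 ± 0.09 (adjusted p = 8.59e-09, edgeR quasi-likelihood test), and the ranges did not overlap. Tenocyte-like cells had 1343, 1197 and 1344 CPM. Pericyte/smooth-muscle-like cells had 377, 361 and 367 CPM and endothelial-like cells 224, 191 and 206 CPM, against 931, 901 and 985 CPM in fibroblast-like cells. Both vessel classes were lower than fibroblast-like cells, with log2 fold changes of -1.73 ± 0.07 and -2.40 ± 0.07 (adjusted p = 4.49e-19 and 2.55e-12, edgeR quasi-likelihood test).

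**Figure D4:**
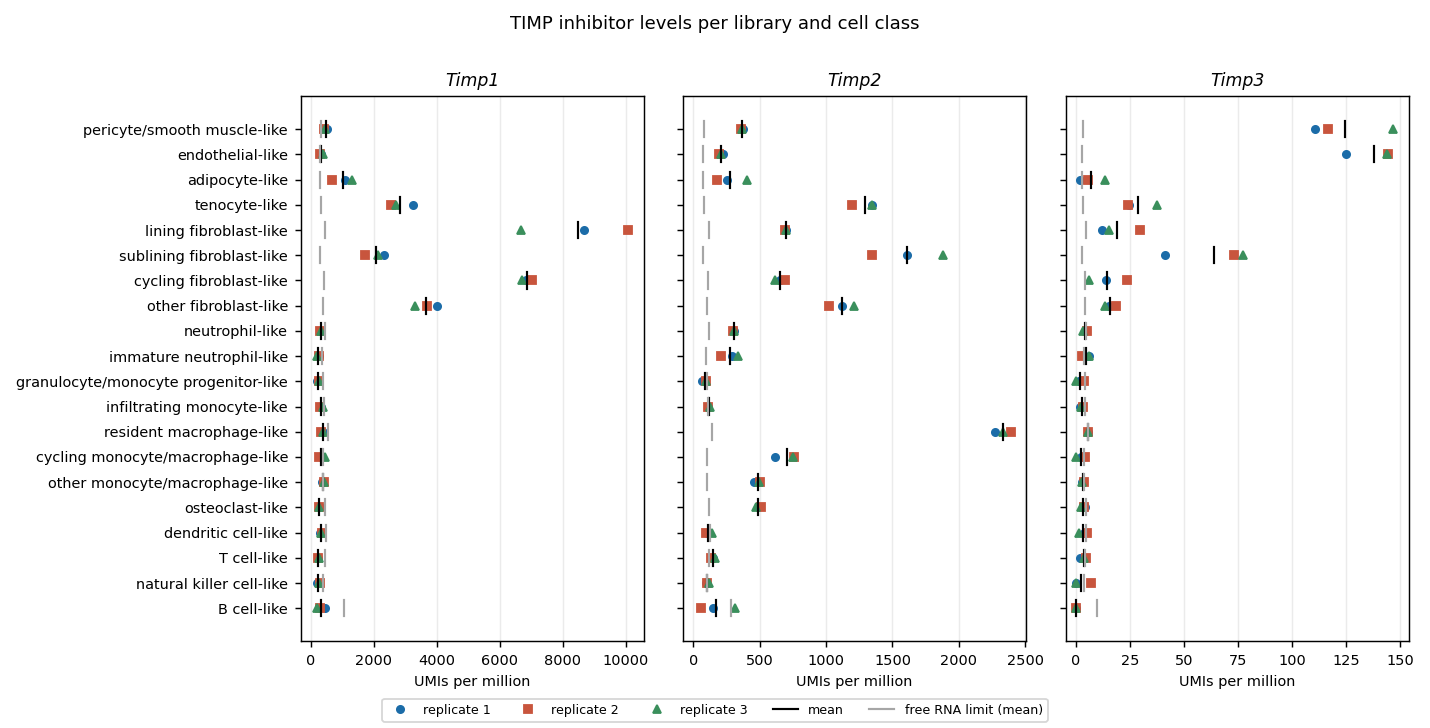
Levels of the 3 TIMP genes (x axis, CPM, each gene on its own scale) in 20 cell classes (y axis), with 1 point per library, a black line for the mean and a solid grey line for the mean free RNA limit. Timp1 is farthest right in lining-fibroblast-like cells, Timp2 in resident-macrophage-like cells at 2271 to 2389 CPM and Timp3 in both vessel classes.

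Set against monocyte/macrophage-like cells, fibroblast-like cells held more of all 8 genes. Of the 15358 genes tested, 43.5% were called in either direction (23.7% higher and 19.8% lower), and the median log2 fold change was 3.73 over the 8 genes and 0.03 over all genes tested. Adamts1 had 55.7, 66.0 and 46.4 CPM in fibroblast-like cells, against 3.49, 4.10 and 4.14 CPM in monocyte/macrophage-like cells (3.86 ± 0.10). Adamts2 had 133, 131 and 146 CPM, against 8.00, 10.2 and 11.3 CPM (3.86 ± 0.09). The log2 fold changes of Adamts4, Adamts12, Timp1 and Timp3 were 3.598 ± 0.12, 2.87 ± 0.14, 3.97 ± 0.12 and 2.72 ± 0.10. For these genes the monocyte/macrophage-like level was near the free RNA limit. Timp2 had the lowest fold change, 1.25 ± 0.08 (adjusted p = 9.09e-09, edgeR quasi-likelihood test), with 376, 409.6 and 445 CPM in monocyte/macrophage-like cells, above limits of 93.0, 80.5 and 147 CPM. In the wider families, 8 of 9 tested other ADAMTS protease genes were higher, led by Adamts14, a procollagen N-proteinase gene, at 3.98 ± 0.10, and 1 was not called. Of 6 tested genes for ADAMTS-like proteins and other inhibitors, 4 were higher, led by Adamtsl1 (4.11 ± 0.09). Among 7 substrate genes, 6 were higher, led by Comp (4.002 ± 0.09), and 1, Thbs1 (-2.37 ± 0.09), was lower. The activation and clearance list had 3 of 8 higher, led by the proprotein convertase gene Pcsk5 (4.22 ± 0.11). Of 10 other metalloproteinase genes, 5 were higher, led by the stromelysin gene Mmp3 (3.83 ± 0.12), and 2 lower, among them the sheddase gene Adam17 (-1.40 ± 0.07). Genes of the response to tissue digestion were lower for 10 of 15, led by Hspa1a (-2.11 ± 0.09), and the part of digestion in the levels of the 8 genes was not tested.

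Lining-fibroblast-like cells held more Timp1 and less Adamts2, Timp2 and Timp3 than sublining-fibroblast-like cells. That is 4 of 8 genes called, where 10.6% of 11964 genes tested were called in either direction (4.24% higher and 6.37% lower), and the median log2 fold change was -0.31 over the 8 genes and 0.01 over all. Adamts1, Adamts4, Adamts5 and Adamts12 were not called, with log2 fold changes from -0.48 to 0.32. Adamts12 was called lower with per-cell marker gates (-1.24) and with no margin between sub-class scores (-1.03). With TMM scaling, 39.95% of the 1269 calls were higher in lining-fibroblast-like cells. Scaling by totals alone gave 1342 calls, 53.3% of them higher, and moved the median over all genes to 0.17. Of 8 tested other ADAMTS genes, 3 were higher, led by Adamts16 (1.61 ± 0.19), and 1, the versican- and aggrecan-cutting protease gene Adamts15 (-2.61 ± 0.17), was lower. The substrate genes were lower for 5 of 7, led by Acan, which encodes aggrecan, at 15.5 CPM in lining-fibroblast-like and 411 CPM in sublining-fibroblast-like cells (-4.88 ± 0.10). The sublining-fibroblast-like sub-cluster of 528 cells also passed 6 of 9 tenocyte markers. Tenocyte markers summed to 689 to 1620 CPM in sublining-fibroblast-like and 161 to 212 CPM in lining-fibroblast-like cells. The part of tenocyte-type cells in these differences was not tested. Sdc1, a syndecan gene, was the 1 of 8 activation and clearance genes that was higher (1.35 ± 0.14). Metalloproteinase genes were lower for 3 of 10, led by the gelatinase gene Mmp2 (-1.48 ± 0.08), and 2 of 5 ADAMTS-like and inhibitor genes were lower. The 15 digestion-response genes had a median log2 fold change of 0.08. With cells classed by per-cell marker gates, Adamts2 and Timp2 were at -0.52 and -0.54 and were not called.

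For tenocyte-like over fibroblast-like cells 1 of the 8 genes was called, Adamts5, which was lower. Among 13887 genes tested 8.16% were called in either direction, 2.7% higher and 5.46% lower. With TMM scaling, 33.1% of the 1133 calls were higher in tenocyte-like cells. With totals alone, 19.7% of 1327 calls were higher and the median of all genes was -0.21. The median log2 fold change was 0.08 over the 8 genes and -0.0036 over all. The other 7 genes were not called, with log2 fold changes from -0.77 (Timp1) to 0.72 (Timp3). Among them, Adamts1, Adamts2, Timp1, Timp2 and Timp3 had an adjusted p under 0.05 (edgeR quasi-likelihood test) and missed only the fold threshold. Without replicate 2, Timp3 was called as well, at 1.09. With no margin between sub-class marker scores, Adamts12 was called, at 2.07 in place of -0.20. Acan was at 827 CPM in tenocyte-like and 133 CPM in fibroblast-like cells (2.84 ± 0.08), 1 of 3 substrate genes that were higher of 7 tested. Other ADAMTS genes were higher for 1 and lower for 4 of 9, with Adamts16 at -3.17 ± 0.28, and Mmp3 was lower at -2.17 ± 0.08. Of the inhibitor list 2 of 6 genes were higher, led by Adamtsl3 (1.013 ± 0.17). The metalloproteinase gene Adam12 was higher at 1.06 ± 0.09 and the convertase gene Pcsk6 lower at -2.31 ± 0.24. The digestion-response list had a median of -0.21.

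Pericyte/smooth-muscle-like cells held more Adamts4, Adamts12 and Timp3 and less Adamts1, Adamts5, Timp1 and Timp2 than fibroblast-like cells. These 7 of 8 calls stand beside 21.3% of 14090 genes called in either direction, 11% higher and 10.3% lower, with a median log2 fold change of -0.02 over the 8 genes and -0.03 over all. With TMM scaling, 51.5% of the 3003 calls were higher in pericyte/smooth-muscle-like cells. With totals alone, 73.3% of 3553 calls were higher and the median of all genes was 0.34. Other ADAMTS genes were higher for 4 and lower for 4 of 10, with Adamts9, a versican-cutting protease gene, at 3.72 ± 0.14 and Adamts16 at -3.30 ± 0.28. Timp4, the fourth TIMP gene, had 15.6 CPM in pericyte/smooth-muscle-like cells and 0.164 CPM in fibroblast-like cells (6.20 ± 0.46). The substrate genes were lower for 5 of 7, led by Comp (-4.19 ± 0.10), and higher for Thbs1 (1.04 ± 0.13). Pcsk5 led 5 of 8 lower activation and clearance genes (-4.00 ± 0.12). The metalloproteinase list had 4 of 10 lower, led by Mmp3 (-4.23 ± 0.09), and 1 higher, Adam12 (1.73 ± 0.09). Inhibitor genes were higher for 2 and lower for 3 of 7, with Adamtsl3 at -3.73 ± 0.38. Of 15 digestion-response genes, Hspa1b was higher (1.51 ± 0.28) and Ier3 lower (-1.35 ± 0.10).

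Endothelial-like cells held more Adamts4 and Timp3 and less Adamts2, Adamts5, Adamts12, Timp1 and Timp2 than fibroblast-like cells, while Adamts1 was not called. These are 7 of 8 genes, where 29.6% of 14438 were called in either direction (12.4% higher and 17.2% lower), and the median log2 fold change was -2.09 over the 8 genes and -0.04 over all. With TMM scaling, 42.0% of the 4273 calls were higher in endothelial-like cells, and with totals alone 50.9% of 4321, where the median of all genes was 0.17. The tenocyte, pericyte and endothelial comparisons share the same fibroblast-like sums and are not independent of each other. Of 10 tested other ADAMTS genes, 2 were higher, led by Adamts9 (4.61 ± 0.10), and 4 lower, led by Adamts14 (-3.93 ± 0.15). Substrate genes were lower for 6 of 7, led by Comp (-4.38 ± 0.09), with Thbs1 higher (1.30 ± 0.08). Inhibitor genes were lower for 5 of 7, led by Adamtsl1 (-3.95 ± 0.12), and higher for 1. Activation and clearance genes were lower for 6 of 8, led by Pcsk5 (-4.13 ± 0.14). The metalloproteinase list had 2 of 10 higher, led by Adam15 (2.28 ± 0.07), and 5 lower, led by Mmp3 (-4.30 ± 0.10). The digestion-response list had a median of -0.13.

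Between the 2 main leukocyte classes, 1 of 8 genes was called, where 46.3% of 13778 genes tested were called in either direction, 22% higher and 24.3% lower. Adamts4 had 2.45, 2.09 and 2.21 CPM in neutrophil-like cells, against 1.57, 1.38 and 1.29 CPM in monocyte/macrophage-like cells, with log2 fold change 1.02 ± 0.26 (adjusted p = 0.00176, edgeR quasi-likelihood test). Both classes were under their free RNA limits in every library, so the call compares levels within reach of free RNA. Scaled by totals alone, the log2 fold change was 0.67 and was not called, as without replicate 2 (0.95) or replicate 3 (0.94). With TMM scaling, 47.5% of the 6381 calls were higher in neutrophil-like cells. With totals alone, 32.004% of 6746 calls were higher and the median of all genes was -0.39. The median over the 8 genes was 0.80 and over all genes -0.03. Among the metalloproteinases that TIMPs bind, the gelatinase gene Mmp9 was higher in neutrophil-like cells (5.07 ± 0.11) and 3 of 10 were lower, led by the membrane-type protease gene Mmp14 (-2.52 ± 0.09). The hyaluronan receptor gene Cd44 was higher (2.03 ± 0.09), the syndecan gene Sdc4 lower (-2.48 ± 0.08) and the versican gene Vcan lower (-1.72 ± 0.08). Digestion-response genes were higher for 12 of 15, led by Ier3 (3.20 ± 0.09), and their summed level was 15025 CPM in neutrophil-like and 4893 CPM in monocyte/macrophage-like cells.

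**Figure D5:**
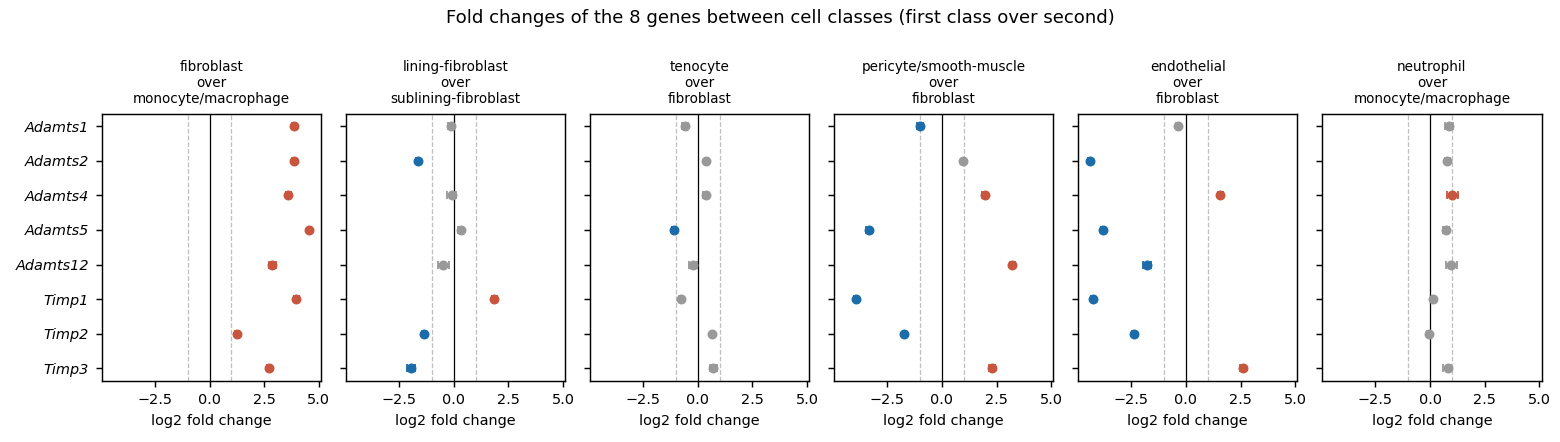
Log2 fold changes of the 8 genes in the 6 comparisons (x axis, first class over second, with SE bars; dashed lines at 1 and -1), with red points called higher, blue points called lower and grey points not called. All 8 points lie to the right in the comparison of fibroblast-like with monocyte/macrophage-like cells, and in both vessel comparisons Adamts4 and Timp3 lie to the right while Adamts5, Timp1 and Timp2 lie to the left.

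Other genes with the most similar pattern were sought by Pearson's r of log levels over the 20 classes, among 6745 genes, as a description with no test. The nearest to Adamts5 was Wisp2 (r = 0.967), to Timp1 Medag (0.969) and to Adamts2 Angptl2 (0.978), followed for Adamts2 by the collagen VI genes Col6a1 and Col6a2. The nearest to Adamts4 was Armcx2 (0.971), followed by Nid1 and Gng11, and to Timp3 it was Nrep (0.929), also followed by Gng11. Adamts12 was nearest to Aoc3 (0.928) and Adamts1 to Rbfox2 (0.960). Timp2 had the lowest best match, Ahnak2 (0.876), followed by the lysosomal membrane gene Cd63. Within the set, the r of Adamts5 was 0.886 with Timp1, 0.509 with Timp2 and 0.520 with Timp3, and that of Adamts4 was 0.846 with Timp3 and 0.560 with Timp1. The classes share libraries, differ in depth and include related stromal types, so these values describe likeness only.

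Within fibroblast-like cells thinned to 1000 UMIs, cells with an Adamts5 UMI were set beside those without. Timp1 was found in 87.3%, 90.6% and 81.7% of Adamts5-positive cells, against 88.0%, 85.7% and 80.4% of the others, in replicates 1, 2 and 3. Timp2 was found in 55.7%, 51.8% and 55.4%, against 57.8%, 56.9% and 59.9%. Timp3 was found in 1.00%, 1.81% and 0.914%, against 1.16%, 2.02% and 1.44%. The share with Timp2 was lower in Adamts5-positive cells in 3 of 3 libraries and that with Timp1 higher in 2 of 3, while the Timp3 shares rest on a handful of positive cells. Adamts1 was found in 5.67%, 9.42% and 5.67% of Adamts5-positive cells, against 4.29%, 5.08% and 4.31% of the others. For Adamts12 the shares were 2.67%, 1.45% and 1.83%, against 1.33%, 1.39% and 1.11%. Both genes were higher in 3 of 3 libraries, but the Adamts12 shares also rest on few positive cells and were close in replicate 2. One fibroblast-like sub-cluster, of 456 cells, held 313 CPM of Adamts5, 93.5 CPM of Adamts1 and 77.5 CPM of Adamts12, beside 4573 CPM of Malat1. The part of such sub-clusters in these shares was not tested. The Adamts5-positive cells numbered 300, 276 and 547, and no test was run over cells, which are not replicates.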

How the data were processed

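The deposited matrices held UMI counts per gene and cell barcode, made with PISA 1.0 per the file headers. The submitters' processing notes name Seurat 3.0.2, R 3.6 and GRCm39 (mm39). For the aligner, annotation and strand setting, nothing is given in the sources used here. Of 38804 barcodes, 82 with under 200 genes or over 20% mitochondrial UMIs were left out, and 1853 with a doublet score over 0.2 were removed. Cells were clustered in scanpy 1.11.5 (Leiden, leidenalg 0.10.2) on 2000 variable genes, with the 8 genes and the listed genes left out, and named from marker lists with at least 3 detected markers. The doublet score and the naming thresholds were chosen after seeing the data. The 8 genes and all lists were chosen with earlier results of these data known. Counts were summed per library and class (at least 20 cells) and tested with edgeR 4.0.16 in R 4.3.3, with DESeq2 1.42.0 as an alternative. Both sums of a library come from the same 2 mice, so the library was a block. Per list and direction, the text names the gene that was called with the largest change, where that direction held in all 3 libraries and the higher class had at least 10 CPM. In counts simulated for the fibroblast-like over monocyte/macrophage-like comparison (15116 genes), 96.9% of changes of 1.5 on the log2 scale were recovered with 1 false call, and 93.9% with 2 false calls for lining-fibroblast-like over sublining-fibroblast-like (11776 genes).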

Additional observations from a re-analysis of the deposited data

How the results depend on the processing

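Of the results for single genes under all alternatives, 631 kept their side of the threshold, 12 gained a call and 17 lost one. A further 2 changed sign and were called in the main setting or the alternative. Changes of sign between values called in neither were counted among the 631. The cause of these changes was not tested. The number of the 8 genes called for tenocyte-like over fibroblast-like cells was 1, with a range of 1 to 2 when each replicate was left out, 0 with thinned cells, 0 with doublets kept, 0 with per-cell marker gates, 2 at resolution 2.0 and 2 with no margin between fibroblast sub-class scores. With no margin, Adamts5 was at 0.080 and Adamts12 at 2.07 on the log2 scale. For neutrophil-like over monocyte/macrophage-like cells the number was 1, with 0 to 1 when each replicate was left out, 2 with DESeq2, 0 with library totals, 0 without a filter on low counts, 0 with free RNA subtracted (where only 2 of the 8 genes could be tested), 2 with doublets kept and 2 with marker gates. The class with the highest level was the same for 5 of the 8 genes with marker gates and differed for Adamts1, Adamts4 and Timp2. The gates form 17 of the 20 classes and no resident macrophage class, in which Timp2 was highest.

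Without the replicate block, 8, 4, 1, 6, 7 and 1 of the 8 genes were called in the 6 comparisons, in the order of the report. The pairing by library added 1 call, Adamts1 in pericyte/smooth-muscle-like cells (-0.997, adjusted p = 0.000775, edgeR). The genes called in all were 1133 for tenocyte-like cells, against 356 with thinned cells, 260 with gates and 1846 with no margin. They were 1269 for lining-fibroblast-like cells against 426 with thinned cells, 3003 for pericyte/smooth-muscle-like cells against 1864 with thinned cells and 1831 with gates, and 4273 for endothelial-like cells against 2540 with thinned cells. The settings with no margin and without sub-clusters under 50 cells were added after seeing the data. Levels at or under the free RNA limit cannot be told from background at this depth.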
